A study of Mus musculus with 6 samples.

Results

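The 8 genes described here code for parts of the machines that switch on initiator caspases, for the caspases themselves and for one caspase inhibitor. They were chosen by symbol from the 22322 genes of the deposited table: Pidd1, Cradd and Casp2 of the PIDDosome, Apaf1 and Casp9 of the apoptosome, the initiator caspase gene Casp8, the executioner caspase gene Casp6 and the inhibitor gene Xiap. All 8 were found, and all 8 passed the filter on low counts. RNA-Seq had been performed on CD4+CD8+ double-positive (DP) cells sorted from the thymus of untreated mice, in 3 libraries from control mice (Paxbp1fl/fl without the recombinase) and 3 from Paxbp1 cKO mice (Paxbp1fl/fl with Lck-cre). Both groups carried the floxed allele on the C57BL/6 background, in which loxP sites flank exon 8. The mice were littermates of mixed sexes aged 4 to 7 weeks, and cre under the Lck promoter acts in developing T cells from before the DP stage. The comparison asked how the loss of Paxbp1, a nuclear protein, alters transcripts in DP cells, which are prone to die in the thymus. The labels do not say whether each library came from its own mouse, so that p-values measure only the spread between these libraries.

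An initiator caspase is made as an inactive precursor and becomes active when a scaffold brings copies of it together. In the PIDDosome the scaffold protein PIDD1 binds the adaptor CRADD (also called RAIDD) through death domains, and CRADD recruits caspase-2 through a caspase recruitment domain. In the apoptosome, APAF1 assembles with cytochrome c that has leaked from mitochondria and recruits caspase-9, whereas caspase-8 is activated at death receptors. Executioner caspases act downstream, caspase-6 on nuclear lamins among other proteins. XIAP binds and blocks caspase-9 and executioner caspases other than caspase-6. The PIDDosome also forms at surplus centrosomes, where caspase-2 cleaves MDM2 and thereby stabilizes p53, and Pidd1 was named for its induction by p53.

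The sequences around the start sites of the 3 PIDDosome genes are shown because these genes code for proteins of 1 complex while their transcripts differed in direction. Each runs 5′ to 3′ on the gene's strand, from 250 bases before to 50 bases after the RefSeq start site on build GRCm38.p6. Capitals mark matches on either strand to the GC box (GGGCGG), the CCAAT box (CCAAT), an ETS motif (CCGGAAG), a YY1 motif (AAGATGG) and a partial CRE (TGACGTC). The motif TATAAA was also searched and is not marked. Only the letters given were searched, so other forms of a motif, such as other ETS sites, are neither marked nor counted. Positions count from 0 at the start site.
Pidd1: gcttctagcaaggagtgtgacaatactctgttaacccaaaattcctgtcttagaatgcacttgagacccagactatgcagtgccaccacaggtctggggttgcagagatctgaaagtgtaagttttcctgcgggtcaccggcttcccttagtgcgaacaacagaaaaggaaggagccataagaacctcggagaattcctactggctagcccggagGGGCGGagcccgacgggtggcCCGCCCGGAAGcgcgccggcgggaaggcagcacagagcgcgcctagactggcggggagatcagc
Cradd: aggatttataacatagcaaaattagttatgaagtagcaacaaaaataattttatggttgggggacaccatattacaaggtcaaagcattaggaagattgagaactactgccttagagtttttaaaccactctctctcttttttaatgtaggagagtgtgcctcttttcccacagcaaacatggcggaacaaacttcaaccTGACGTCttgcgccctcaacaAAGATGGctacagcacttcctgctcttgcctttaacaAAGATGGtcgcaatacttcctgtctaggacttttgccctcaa
Casp2: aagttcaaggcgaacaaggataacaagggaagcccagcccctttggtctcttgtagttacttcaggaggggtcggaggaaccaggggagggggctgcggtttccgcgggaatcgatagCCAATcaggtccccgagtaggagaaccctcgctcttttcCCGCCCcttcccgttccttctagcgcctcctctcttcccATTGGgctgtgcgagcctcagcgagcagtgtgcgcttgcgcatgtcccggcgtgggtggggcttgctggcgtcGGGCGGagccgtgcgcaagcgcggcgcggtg

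The Pidd1 window (chr7:141443976-141444275, minus strand) had a GC content of 57.7%, with GC boxes whose first bases lay at -35 and -14 and an ETS motif at -10 that overlaps the second GC box. The Cradd window (chr10:95324088-95324387, minus strand) held no GC box and no CCAAT box. Its GC content was 40.3%, and it had a partial CRE at -50 and YY1 motifs at -29 and 8. The Casp2 window (chr6:42264735-42265034, plus strand) had a GC content of 63.7%, with GC boxes at -93 and 19 and CCAAT boxes at -132 and -54. Of the 32851 RefSeq windows of this length, 35.7% held a GC box, 37.4% a CCAAT box and 8.86% the ETS motif. The YY1 motif was in 6.34%, the partial CRE in 3.21% and the motif TATAAA, which the Cradd window held at -246, in 13.6%. The median GC content was 52.7%. A p53 half-site, searched by its consensus on both strands, was found in 8.36% of all windows and in none of the 10 windows that matched the 8 genes, which says only that these letters are missing from these 300 bases.

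The libraries held 18963775 to 26252248 counts. Paxbp1 itself was counted at 24.0 ± 14.0 CPM (counts scaled to library size) in control libraries and at 45.2 ± 5.64 CPM in libraries labelled cKO (SD, n = 3 each), which overlapped and differed by 0.92 on the log2 scale (edgeR adjusted p = 0.0977). Since only exon 8 is deleted, a count over the whole gene does not check the genotype, and the libraries are called by their labels. The paper reported the deletion in sorted thymocytes by qPCR, reverse transcription PCR and western blot, not from these libraries. DP markers were abundant in all libraries, with a summed level of 11710 to 13700 CPM in control libraries and 8858 to 10470 CPM in those labelled cKO. None of the 12 DP markers had a higher fitted level in libraries labelled cKO, and 4 fell (Rag1, Cd8b1, Cd3e and Cd3g). Of 16 macrophage markers 12 were tested, all 12 had a higher fitted level and 4 rose (Adgre1, C1qb, C1qc and Cd68). Their sum was 7.43 to 27.8 CPM in control libraries and 50.8 to 76.1 CPM in those labelled cKO, with Mertk and Vsig4 at 0 counts everywhere and Adgre1 and Fcgr1 at 0 in control libraries. The markers of CD4-CD8- and immature single-positive cells summed to 35.9 to 46.5 CPM and 70.9 to 110.7 CPM. Of the 5 tested, 2 had a higher fitted level, Il2ra and Hes1, and both rose, while the other 3 had a lower one. The part of these other cells in the changes given next was not tested.

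Among the 8 genes, Pidd1 rose and Cradd fell in the libraries labelled cKO, and the other 6 did not pass the test. Pidd1 reached 3.15 times its control level, whereas Cradd dropped to a level 1.83 times below control. The test was edgeR's quasi-likelihood test at an adjusted p under 0.05, fitted on 11488 genes. Of all genes tested, 4.47% rose and 5.89% fell, 10.4% in either direction, beside 1 riser and 1 faller among 8. The median log2 fold change of the 8 genes was -0.05, beside -0.0017 over all genes tested. In bulk RNA, fewer cells that express a gene and less of its RNA in each cell cannot be told apart.

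**Figure D1:**
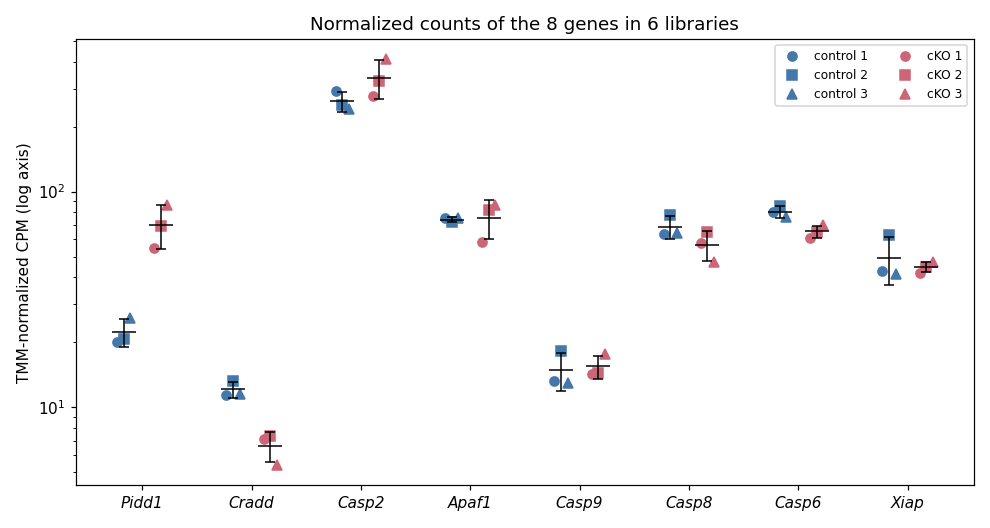
Normalized counts of the 8 genes in each library, in TMM-normalized CPM on a log axis. Points are libraries, the horizontal line is the mean of a group and the bar its SD (n = 3). Pidd1 lies at 20.2 to 26.01 CPM in control libraries and at 55.0 to 87.1 CPM in libraries labelled cKO. Cradd shows the opposite order without overlap, and Casp6 is the only other gene whose groups do not overlap. Of all tested genes, 33% showed such a separation.

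Pidd1 (ENSMUSG00000025507) lies on the minus strand of chr7:141438113-141444025 (GENCODE release M21, GRCm38), where its reference transcript has 16 exons and 3357 nt and no other gene overlaps it. It codes for the scaffold on which the PIDDosome is built. Control libraries 1, 2 and 3 held 389, 405 and 670 counts, or 20.2, 20.8 and 26.01 CPM. Libraries labelled cKO 1, 2 and 3 held 1204, 1325 and 1886 counts, or 55.0, 69.0 and 87.1 CPM. Every library labelled cKO stood above every control library, and the library labelled cKO 3 was the highest. The mean went from 22.3 ± 3.20 to 70.3 ± 16.1 CPM (SD, n = 3 each), a log2 change of 1.65 with an SE of 0.19, a 95% confidence interval of 1.22 to 2.08 and an edgeR adjusted p of 0.00349. By its p-value Pidd1 ranked 15th of the 11488 genes. It was the only one of the 8 genes to pass the test with a log2 fold change beyond 1 in size, a pair of criteria that 1.53% of tested genes met upward and 1.23% downward. An exact two-sided permutation test of the log2 CPM gave p = 0.1, the smallest p that 3 libraries against 3 allow. The spread within groups exceeded counting error, with a coefficient of variation of 14.3% in control libraries and 22.9% in those labelled cKO, beside 4.53% and 2.61% from counting alone.

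The genes beside Pidd1 were looked at for shared movement. Slc25a22, which codes for a mitochondrial glutamate carrier and lies 220 nt from Pidd1, differed by 0.16 on the log2 scale (edgeR adjusted p = 0.679). Rplp2, a ribosomal protein gene 3344 nt away, differed by 0.44 (edgeR adjusted p = 0.119). Neither neighbor passed the test.

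Cradd (ENSMUSG00000045867), which codes for the adaptor between PIDD1 and caspase-2, lies on the minus strand of chr10:95174746-95324133, spanning 149388 nt with 3 exons in a transcript of 1661 nt. Control libraries held 221, 259 and 298 counts, or 11.5, 13.3 and 11.6 CPM. Libraries labelled cKO held 156, 141 and 117 counts, or 7.12, 7.34 and 5.40 CPM. All libraries labelled cKO were below all control libraries, and the library labelled cKO 3, highest for Pidd1, was the lowest for Cradd. The mean went from 12.1 ± 1.04 to 6.62 ± 1.06 CPM (SD, n = 3 each), with a log2 fold change of -0.87, an SE of 0.24 and a 95% confidence interval of -1.41 to -0.33. The edgeR adjusted p was 0.047, close to the threshold. The call was lost when libraries were scaled by total counts alone (adjusted p = 0.051) and when any library other than control 1 was left out (adjusted p up to 0.164), with log2 fold changes of -0.95 to -0.75 over the fits that leave out 1 library. The exact permutation p was 0.1. The span of an annotated antisense gene, Gm48882, introns included, covers 942 exonic nt of Cradd. No source used here states a stranded count, so reads of Gm48882 in that stretch cannot be told from those of Cradd.

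Casp2 (ENSMUSG00000029863), the gene of the PIDDosome's caspase, has 11 exons and lies on the plus strand of chr6:42264985-42282508. Its level was 292, 251 and 241 CPM in control libraries and 276, 324 and 411 CPM in those labelled cKO. The groups overlapped, since the library labelled cKO 1 was below control 1. The log2 fold change was 0.37 with an SE of 0.15 and a 95% confidence interval of 0.03 to 0.71, and the edgeR adjusted p of 0.15 was above the threshold. Without cKO 3 the log2 value was 0.20, and over the fits that leave out 1 library it was 0.20 to 0.49. Thus of the PIDDosome genes the scaffold rose, the adaptor fell and the caspase did not pass the test.

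**Figure D2:**
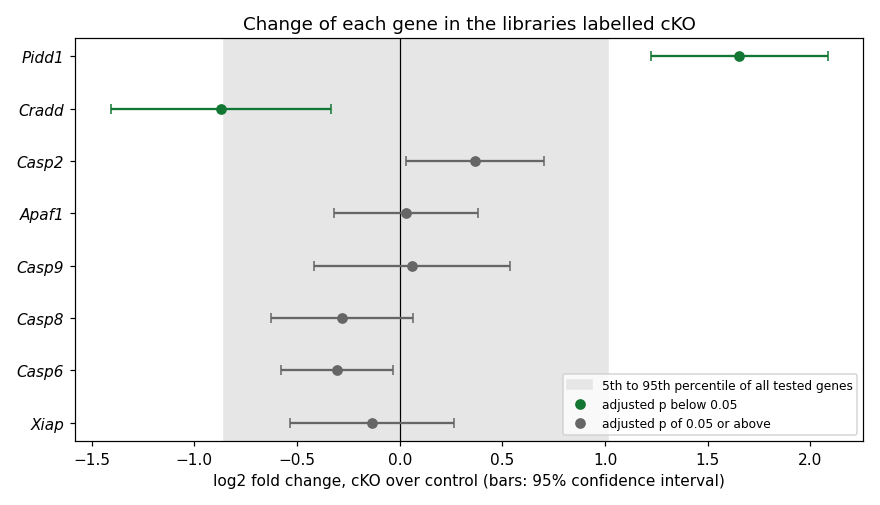
Change of each gene on the log2 scale, libraries labelled cKO over control, from the edgeR fit. Points are estimates and bars 95% confidence intervals, the shaded band runs from the 5th to the 95th percentile of all 11488 tested genes (-0.86 to 1.02), and green marks an adjusted p under 0.05. The interval of Pidd1 lies wholly above the band, Cradd's estimate lies at the band's lower edge, and the other 6 estimates lie within it.

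Neither gene of the apoptosome passed the test. Apaf1 (ENSMUSG00000019979), the scaffold gene on the minus strand of chr10:90989311-91082770, was at 75.3, 72.0 and 75.0 CPM in control libraries and at 58.3, 81.9 and 86.9 CPM in those labelled cKO. The control libraries were close together, and the libraries labelled cKO fell on both sides of them. The log2 fold change was 0.03 with a 95% confidence interval of -0.32 to 0.38 (edgeR adjusted p = 0.928). Casp9 (ENSMUSG00000028914), on the plus strand of chr4:141793612-141815976, was at 13.3, 18.3 and 13.01 CPM in control libraries and at 14.3, 14.5 and 17.7 CPM in those labelled cKO. Its highest value was in a control library, and the groups overlapped. The log2 fold change was 0.06 with a 95% confidence interval of -0.42 to 0.54 (edgeR adjusted p = 0.893). The spans of the opposite-strand genes Cela2a and Ctrc, introns included, each cover 1015 exonic nt of Casp9. Both are pancreatic protease genes and had 0 counts in all 6 libraries. The intervals of Apaf1 and Casp9 both exclude a change as large as that of Pidd1.

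The other caspase genes had lower fitted levels in the libraries labelled cKO and did not pass the test. Casp8 (ENSMUSG00000026029), on the plus strand of chr1:58795374-58847503, was at 63.4, 77.9 and 64.5 CPM in control libraries and at 57.6, 64.8 and 47.1 CPM in those labelled cKO. The groups overlapped by a narrow margin, because the library labelled cKO 2 was above controls 1 and 3. Its log2 fold change was -0.28 with a 95% confidence interval of -0.63 to 0.07 (edgeR adjusted p = 0.276), and it was -0.17 without cKO 3 and -0.18 without control 2. Casp6 (ENSMUSG00000027997), on the plus strand of chr3:129901425-129914103, was at 80.5, 86.0 and 75.9 CPM in control libraries and at 61.2, 65.2 and 69.7 CPM in those labelled cKO. Its groups did not overlap, a separation that Pidd1 and Cradd also had and that 33% of all tested genes showed. Casp6 had a log2 fold change of -0.31 with an SE of 0.12 and a 95% confidence interval of -0.58 to -0.03, an unadjusted p of 0.0317 and an edgeR adjusted p of 0.138. Xiap (ENSMUSG00000025860), the inhibitor gene on the plus strand of chrX:42059679-42109656, was at 43.0, 63.2 and 41.4 CPM in control libraries and at 42.1, 44.9 and 47.2 CPM in those labelled cKO. Control 2 stood above all other libraries, and the remaining values lay close together. Xiap had a log2 fold change of -0.14 with a 95% confidence interval of -0.54 to 0.26 (edgeR adjusted p = 0.674). Apaf1, Casp9 and Xiap each changed the sign of their fold change when 1 library was left out.

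The 3 libraries labelled cKO did not vary in the same order for every one of the 8 genes, but 1 order was frequent among them. The library labelled cKO 3 was the highest of its group for 6 of the 8 genes and the lowest for Cradd and Casp8. The library labelled cKO 1 was the lowest for the 6 genes other than Cradd and Casp8. How often this order occurs over all tested genes was not counted, so it cannot be read as a trait of these 8 genes.

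The level of the genes relative to each other was read from the deposited FPKM, which are scaled to gene length. In mean FPKM over the 6 libraries, Casp2 was highest at 87.3, followed by Casp6 at 50.1, Casp8 at 30.7, Pidd1 at 14.2, Apaf1 at 12.1, Xiap at 7.93, Cradd at 6.20 and Casp9 at 4.25. The place of Pidd1 in this order depended on the group. Its FPKM were 6.15, 6.25 and 7.75 in control libraries, seventh of the 8 genes by the mean, and 17.1, 21.4 and 26.5 in those labelled cKO, the fourth. Cradd went from sixth to eighth, with FPKM of 7.46, 8.76 and 7.67 and then of 4.52, 5.20 and 3.57. Casp2, Casp6 and Casp8 held the first 3 places in both groups, and their FPKM did not overlap within a group. In control libraries the FPKM of Xiap, Cradd and Pidd1, at ranks 5 to 7, overlapped each other, and those of Casp9 lay below all 3. In libraries labelled cKO, Pidd1 overlapped Casp8 above it and was clear of Apaf1 below it, and Cradd overlapped Casp9. CPM per kilobase of the reference transcript gave the same order of the means over 6 libraries in all 28 pairs of genes. Within each group it agreed in 27 of 28 pairs and put Cradd at rank 5, just above Xiap, in control libraries and at rank 7, just above Casp9, in those labelled cKO.

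**Figure D3:**
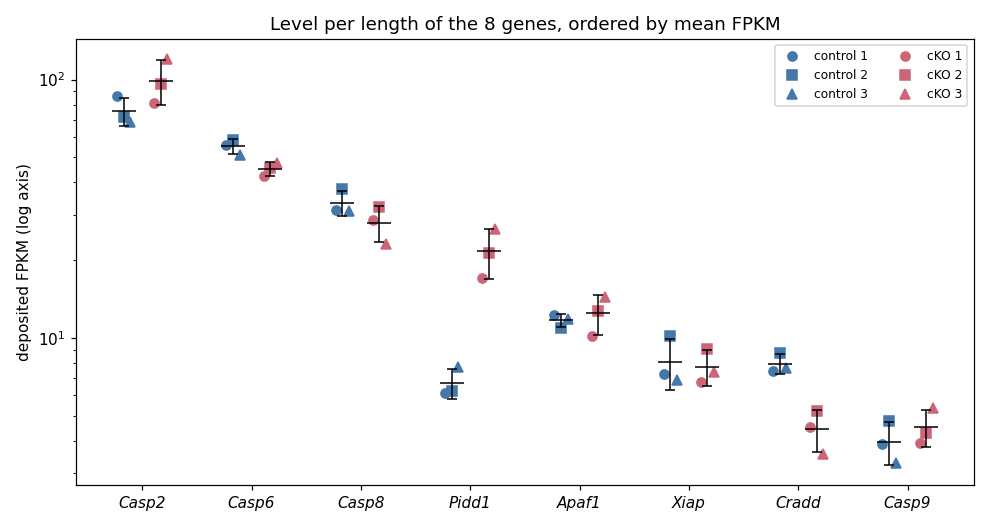
Deposited FPKM of the 8 genes on a log axis, ordered from left to right by the mean over 6 libraries. Points are libraries and lines and bars are group means and SD (n = 3). Pidd1 lies below Apaf1 in control libraries and above it in libraries labelled cKO, while Casp2, Casp6 and Casp8 keep the first 3 places in both groups.

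Ratios between genes within a library do not depend on how libraries are scaled. The count of Pidd1 relative to Cradd was 1.76, 1.56 and 2.25 in control libraries and 7.72, 9.40 and 16.1 in those labelled cKO, 5.74-fold higher by the geometric means. Per length, the ratio of their FPKM was 0.824, 0.713 and 1.01 in control libraries and 3.79, 4.11 and 7.41 in those labelled cKO. Per length, the scaffold and adaptor transcripts stood near 1 to 1 in control libraries and not in the others. Relative to Casp2, the count of Pidd1 was 0.0691, 0.0830 and 0.108 in control libraries and 0.199, 0.213 and 0.212 in those labelled cKO. Here the libraries labelled cKO lay close together (SD of 0.06 on the log2 scale, beside 0.32 in control libraries), although their levels of both genes differed. The ratio of Pidd1 to each of the other 5 genes was 2.97-fold (Casp9) to 3.85-fold (Casp6) higher. None of the 7 ratios overlapped between the groups, and each had an exact two-sided permutation p of 0.1, the smallest possible, and of 0.1 after Benjamini-Hochberg adjustment over 7. All 7 share the Pidd1 count, whose groups were already apart. Their separation thus largely restates the rise of Pidd1 and does not make 7 separate results. The ratio of Cradd to Casp2 was lower in all libraries labelled cKO, by a log2 difference of -1.23 (exact permutation p = 0.1).

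**Figure D4:**
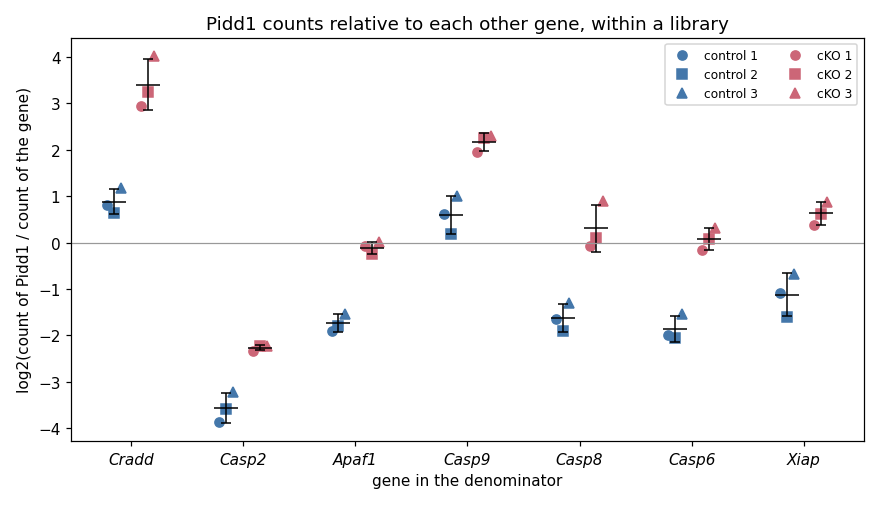
Log2 of the Pidd1 count over the count of each other gene in the same library. Points are libraries, and lines and bars are group means and SD (n = 3). For all 7 genes, which share the Pidd1 count, the libraries labelled cKO lie above the control libraries, most widely for Cradd (a log2 difference of 2.52). For Casp2 those labelled cKO lie closest together.

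Genes whose levels followed those of Pidd1 over the 6 libraries were listed among the 9204 genes with a mean of at least 5 CPM, as a description. The 5 with the highest Pearson correlation of log2 CPM were Ccnh (r = 0.998), which codes for cyclin H, Mcm4 (r = 0.996), a subunit gene of the replicative helicase, Ppp1r8 (r = 0.995), the gene of a nuclear regulator of protein phosphatase 1, Hspa8 (r = 0.994), a constitutive heat shock protein gene, and Ssr1 (r = 0.993), the gene of a translocon-associated protein. The points share 6 libraries in 2 groups, so that any gene that differed between the groups tends to score high. Mcm4 rose by 1.10 on the log2 scale (edgeR adjusted p = 0.00408), Hspa8 by 0.81 (adjusted p = 0.00408) and Ssr1 by 0.43 (adjusted p = 0.0369). Ccnh and Ppp1r8 had log2 fold changes of 0.37 and 0.43 and missed the threshold (edgeR adjusted p = 0.072 and 0.0648).

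Further genes of the same pathways were taken from 6 lists of 52 genes, of which 43 were tested. Those named below without having passed the test were chosen after their values were seen. By edgeR 4 rose, 3 fell and 36 did not pass the test, 7 of 43 beside the 10.4% of all tested genes called. The median log2 fold change was -0.02. Leaving out any library other than control 1 ended most of these calls, and without control 1 all 7 stayed. Without cKO 3 none of the 7 genes passed, and without cKO 1 only Casp8ap2 did. Over all tested genes, too, fewer were called without cKO 3, 42 higher and 78 lower beside 514 and 677. Among 10 partners of the PIDDosome, none rose and 2 fell, with a median of -0.20. Sclt1, a gene of the centriolar distal appendages to which PIDD1 is recruited, was at 25.2, 32.0 and 31.4 CPM in control libraries and at 17.5, 19.2 and 16.9 CPM in those labelled cKO (log2 fold change -0.73, SE 0.17, edgeR adjusted p = 0.028). Ikbkg, which codes for the regulatory subunit NEMO of the IκB kinase that PIDD1 also engages, was at 87.5, 91.2 and 92.4 CPM and then at 68.1, 49.2 and 66.2 CPM (log2 fold change -0.56, SE 0.15, adjusted p = 0.0384). The groups of 4 of the 10 partners did not overlap, Sclt1 and Ikbkg downward and Ripk1 and Mdm2 upward, beside 33% of all tested genes. Of those just outside the threshold, Ripk1 was at 0.60 on the log2 scale (edgeR adjusted p = 0.0553) and Mdm2 at 0.42 (adjusted p = 0.0912). The caspase-2 substrate gene Bid was at 0.01, and Ankrd26, whose product anchors PIDD1 at the centriole, was at -0.18, both far from the threshold. At an unadjusted p under 0.05, 2 of these 10 genes were higher, and other tools called 0 (limma on FPKM with a pseudocount of 1) to 2 (DESeq2) of them higher.

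None of the 6 genes of the mitochondrial arm passed the test, which 10.4% of all tested genes did, and their median was 0.12. In this edgeR fit 0 of them reached an unadjusted p under 0.05, beside 1 in DESeq2, in limma-voom and in some other edgeR settings and 2 in limma on FPKM, and none of these fits called any. Cycs, the cytochrome c gene, differed by 0.29 on the log2 scale (edgeR adjusted p = 0.189) and Diablo, whose product displaces XIAP from caspases, at -0.16 (adjusted p = 0.383). Of 8 genes related to inhibitor of apoptosis proteins, 5 were tested and 1 rose, beside 4.47% of all tested genes. Birc3, which codes for the ubiquitin ligase cIAP2, was at 49.5, 56.0 and 38.7 CPM in control libraries and at 113.2, 64.3 and 79.6 CPM in those labelled cKO (log2 fold change 0.83, SE 0.21, edgeR adjusted p = 0.0364). Xaf1, the gene of a XIAP-binding factor, was at 0.88 and missed the threshold (adjusted p = 0.0841).

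On the death receptor arm, 8 of 9 genes were tested and 1 rose, beside 4.47% of all tested genes. Casp8ap2, whose product FLASH binds caspase-8 and takes part in histone mRNA processing, was at 138.9, 110.4 and 103.0 CPM in control libraries and at 194.5, 217.2 and 227.8 CPM in those labelled cKO (log2 fold change 0.86, SE 0.14, edgeR adjusted p = 0.00749). The receptor gene Fas had a log2 fold change of -0.58 (adjusted p = 0.0588), the inhibitor gene Cflar one of -0.32 (adjusted p = 0.114) and the adaptor gene Fadd one of -0.03 (adjusted p = 0.949). Fas passed the threshold downward in 3 of the 15 alternative fits, DESeq2 among them, and Casp8ap2 lost its call without cKO 3.

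Among 12 genes that act in the execution of apoptosis or are targets of executioner caspases, 2 rose and none fell, with a median of 0.07. Of all tested genes, 4.47% rose and 5.89% fell. Dffb, the gene of the nuclease that cuts DNA between nucleosomes, was at 56.5, 51.2 and 47.6 CPM in control libraries and at 72.0, 69.6 and 77.6 CPM in those labelled cKO (log2 fold change 0.50, SE 0.13, edgeR adjusted p = 0.0384). Lmna, which codes for lamins A and C, proteins that caspase-6 cleaves, was at 15.4, 11.8 and 20.9 CPM and then at 72.8, 27.0 and 30.8 CPM. The library labelled cKO 1 stood far above the other libraries for Lmna, whose log2 change of 1.44 (SE 0.36, edgeR adjusted p = 0.0338) was 0.85 and no longer past the threshold without it. No gene of this list was lower at an unadjusted p under 0.05 by edgeR or DESeq2, and limma on FPKM had 1 such gene and called none.

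Of 7 genes of inflammatory caspases and inflammasomes, 2 were tested and 1 fell, beside 5.89% of all tested genes. Pycard, the gene of the adaptor ASC, fell from 267.7, 278.3 and 293.5 CPM to 197.2, 229.8 and 198.4 CPM (log2 fold change -0.43, SE 0.11, edgeR adjusted p = 0.0398). Casp1 had 0 counts in all control libraries and 12, 0 and 19 in those labelled cKO, too few to be tested. A count of 0 allows up to 3 counts, or 0.114 to 0.158 CPM in these libraries, by counting error alone.

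**Figure D5:**
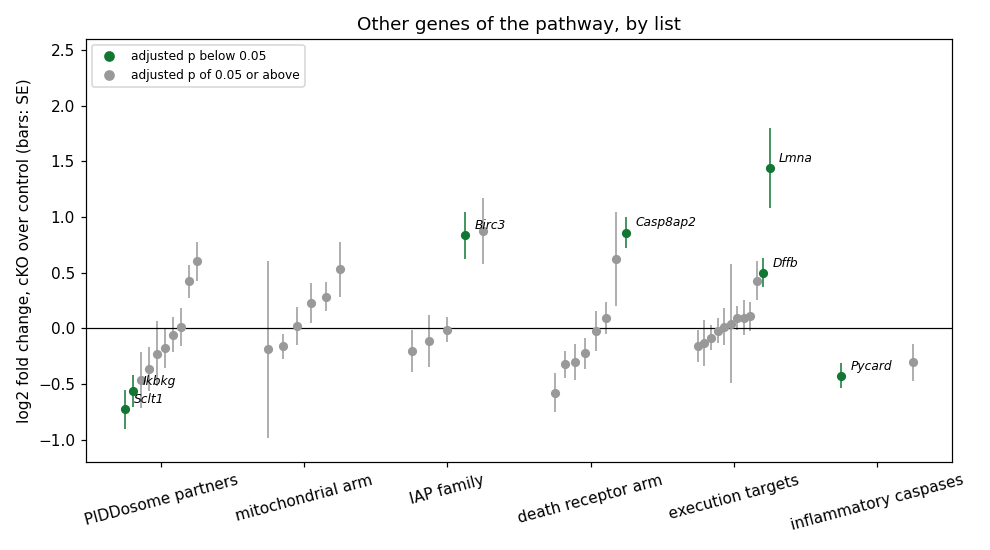
Change of the 43 tested pathway genes on the log2 scale, libraries labelled cKO over control, ordered within each list by size. Points are edgeR estimates, bars are SE, and green marks an adjusted p under 0.05. Of the 7 genes in green, 4 lie above 0 and 3 below, and Lmna at 1.44 is the only one beyond a log2 fold change of 1.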

How the data were processed

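RNA from sorted DP thymocytes was sequenced in 3 control and 3 Paxbp1 cKO libraries, with genotype and replicate number taken from the sample labels. The sample titles read WT-DP for the libraries called control here and Lck-KO-DP for those called cKO. The labels name a SMARTER kit and the study's methods other kits for amplification and library preparation. The submitters' processing notes name fastp 0.18.0, Bowtie2 2.2.8, HISAT2, StringTie and RSEM, with no genome build. The deposited count columns hold the reads the authors counted per gene, without normalization. The deposited FPKM columns are the authors' values scaled to gene length and library size, and the authors' means of FPKM were not used. The deposited log2, p-value and FDR columns hold the authors' own comparison and were not used.

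The 8 genes, the 6 lists and the rule for named genes (all 8, Paxbp1, list genes past the threshold, and the 5 genes most like Pidd1) were chosen with earlier results of these data known. The test was run in edgeR 4.0.16 under R 4.3.3 (TMM, filterByExpr at 10 counts and a total of 15, quasi-likelihood test, genotype as the only term, Benjamini-Hochberg adjustment over 11488 genes). A count was worth 0.0381 to 0.0527 CPM, and floors from counts cover counting error only. The confidence intervals come from the edgeR fit and include the spread between libraries. Single ratios were compared by exact permutation over 20 assignments of genotype. Alternatives were DESeq2 1.42.0, limma-voom (limma 3.58.1), limma on log2 FPKM with a pseudocount of 0.1 or 1, other size factors and filters, the replicate number as a block, and leaving out each library. The scripts were tested on simulated data. Positions are from GENCODE release M21 and sequences from RefSeq (GRCm38.p6), which matched 8 of 8 genes.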

Additional observations from a re-analysis of the deposited data

How the results depend on the processing

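Pidd1 stayed past the threshold in all 15 alternative fits, with log2 fold changes of 1.47 to 1.80 over the fits that leave out 1 library (edgeR adjusted p 0.00252 to 0.0287), and the number of the 8 genes that rose was 1 throughout. The number that fell went from 1 to 0 with total counts (Cradd at -0.85, adjusted p = 0.051) and was 0 to 1 when 1 library was left out (Cradd at -0.95 to -0.75). In each of these fits 1 or 2 of the 8 genes were lower at an unadjusted p under 0.05, and DESeq2 and limma-voom each called 1. The number of list genes that rose, 4, was 7 by DESeq2 and 0 to 5 with 1 library left out, 0 without cKO 3 (7 at an unadjusted p under 0.05). The number that fell, 3, was 1 in limma on log2(FPKM + 0.1), 1 on log2(FPKM + 1), and 0 to 4 with 1 library left out, 0 without each library other than control 1 (4 to 6 at an unadjusted p under 0.05). Over all genes the counts of 514 higher and 677 lower became 953 and 987 by DESeq2, 1000 and 1030 without control 1, and 42 and 78 without cKO 3. With 1 library left out, the log2 fold change was -0.083 to 0.19 for Apaf1 (below 0 at -0.03 without cKO 2 and -0.083 without cKO 3), -0.049 to 0.23 for Casp9 (-0.02 without control 1, -0.03 without control 3 and -0.049 without cKO 3) and -0.25 to 0.083 for Xiap (above 0 at 0.083 without control 2). Of the list genes, Casp8ap2 was lost in 1 of 15 fits (without cKO 3, adjusted p = 0.0523), and the other 6 in 4 to 7. The causes were not tested.

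With the replicate number as a block, Cradd was at -0.88 (edgeR adjusted p = 0.0581), so that 0 of the 8 genes fell, and 570 genes rose and 668 fell over all. The labels give the numbers no meaning beyond a name, and the deviations of same-numbered libraries correlated at 0.0451, 0.0377 and -0.0300, so the block was not taken as a pairing.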
